A study of Mus musculus with 18 samples.

Results

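Sensory neuropeptides are made by peptidergic neurons of the dorsal root ganglia (DRG), mostly small neurons that respond to noxious or itch-inducing stimuli. Each peptide is cut from a longer precursor protein, packed into dense core vesicles and released at both ends of the neuron, where it acts on G-protein-coupled receptors. CGRP and substance P, for example, dilate blood vessels in the skin and excite dorsal horn neurons, galanin, neurotensin and VGF are known for their response to nerve injury, and somatostatin and natriuretic polypeptide B (NPPB) mark a class of itch neurons.

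The 10 precursor genes considered here were listed as a family by what they encode, a rule that uses none of their values, though earlier results of these data were known: *Calca*, *Calcb*, *Tac1*, *Adcyap1*, *Gal*, *Sst*, *Nppb*, *Cartpt*, *Nts* and *Vgf*. Every probe set, the group of short probes that reports a transcript on the array, was taken where the array's annotation names that gene alone. This gave 11 probe sets for 9 of the 10 genes, among 18193 genes measured. *Calca* was not analysed here. *Tac1* and *Adcyap1* each had 2 probe sets, and the brighter one represents the gene unless stated otherwise.

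Whole DRG from all spinal levels of mice were measured on 18 Affymetrix arrays in 6 groups of 3. In the Nav1.7 line, Cre driven from the Advillin locus (*Avil*) removed floxed *Scn9a* from sensory neurons. The Nav1.8 line lacked *Scn10a* and the Nav1.9 line lacked *Scn11a* in all cells, and the controls were the littermates of each line, which GEO's labels call wild type. Groups follow the sample titles and genotype labels, since the source names describe all 18 samples as littermate controls. Whether each array held RNA of 1 mouse is not stated, so the p-values speak of the spread among these samples alone, which may be technical, and 3 arrays a group limit the precision. The study used adult mice of both sexes. Which sex each sample was, its strain and whether the littermates carry a floxed allele are not labelled.

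Values are log2 intensities, so a difference of 1 is a 2-fold difference. The median of an array was 6.33 to 6.36, and within groups any 2 arrays correlated over probe sets at 0.996 to 0.998. The mean of 11 sensory neuron markers, *Avil* among them, was 12.71 to 12.75 in Nav1.7 KO arrays and 12.83 to 12.86 in their littermates. In the arrays of the other lines it was 12.77 to 12.84, so the Nav1.7 KO arrays were the lowest. *Scn10a* was 2.98-fold lower in Nav1.8 KO DRG (adjusted p = 5.4e-05 from limma) and *Scn11a* was 3.62-fold lower in Nav1.9 KO DRG (adjusted p = 7.13e-07). The log2 fold change of *Scn9a* in Nav1.7 KO DRG was -0.06 (adjusted p = 0.642), on a probe set whose place relative to the deleted exons was not analysed here, so it does not check the deletion. *Avil* was 1.56-fold lower there (adjusted p = 8.03e-08), and loss of Nav1.7, the Cre allele and the lower *Avil* cannot be told apart. By *Xist*, the RNA of the inactive X chromosome, 7 arrays were high and 11 low. All 3 Nav1.7 littermates with KO replicates 1 and 3, and Nav1.8 KO replicates 2 and 3, were the high ones. The Nav1.7 and Nav1.8 comparisons are thus not balanced for it, and all 6 Nav1.9 arrays are in 1 class. Since the Nav1.7 KO and Nav1.8 KO groups each held both classes, their arrays were not all of the same RNA.

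2 arrays stood apart in the genes described here. Replicate 3 of the Nav1.7 littermates and replicate 3 of the Nav1.7 KO were low in *Nppb*, *Sst* and a few other genes, as detailed with those peptides. For *Sst*, *Nppb*, *Nts* and *Osmr*, values are given with and without both arrays, a setting chosen after seeing the data.

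Short stretches of the promoters are shown because the cyclic AMP response element (CRE), the binding site of the CREB family, is the classic control element of this gene family. The CRE was searched as the palindrome TGACGTCA and as its half-site TGACG on either strand, in windows of 250 bases before to 50 bases after each transcription start listed by RefSeq (GRCm38.p6). 8 of the 10 genes had a window, and *Calcb* and *Vgf* had none. The palindrome lay in the windows of *Sst*, 48 bases before the start, and of *Cartpt*, 112 bases before it, against 1.79% of all 32851 windows. The half-site lay in a window of every one of the 8 genes but *Nppb*, in *Gal* after the start, and in 20.8% of all windows. An AP-1 site, searched as TGANTCA and found in 7.81% of all windows, lay only in that of *Nts* among the 8. The core of the NFAT site, searched as TGGAAA and found in 21.4% of all windows, likewise lay only in that of *Nts*. Capitals mark the CRE match. *Tac1* holds the half-site in 2 places, and the stretches are from chr6:7554853-7554879 and chr6:7555007-7555033 on the plus strand, chr17:93198915-93198941 (*Adcyap1*, plus strand), chr13:99900777-99900806 (*Cartpt*, minus strand), chr16:23890874-23890903 (*Sst*, minus strand) and chr10:102490569-102490595 (*Nts*, minus strand).
Tac1, farther from the start: ccctaaaattgCGTCAtttcgaacaca
Tac1, nearer to the start: ctctacaggctCGTCAcgcctgagata
Adcyap1: gactaggatgcTGACGtcttttactga
Cartpt: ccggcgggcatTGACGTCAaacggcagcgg
Sst: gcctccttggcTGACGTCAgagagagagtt
Nts: ttagggaagatCGTCActttccatcaa
These are matches of letters, and whether a factor binds them in DRG was not measured.

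The 3 lines gave different pictures for these peptides. In Nav1.7 KO DRG, *Tac1*, *Adcyap1* and *Cartpt* rose and none of the 9 genes fell. In Nav1.9 KO DRG, *Vgf* fell by nearly 1 log2 unit and none rose. In Nav1.8 KO DRG no member passed the test. There 7 of the 9 log2 fold changes were below 0, where the median of all genes was -0.01.

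**Figure D1:**
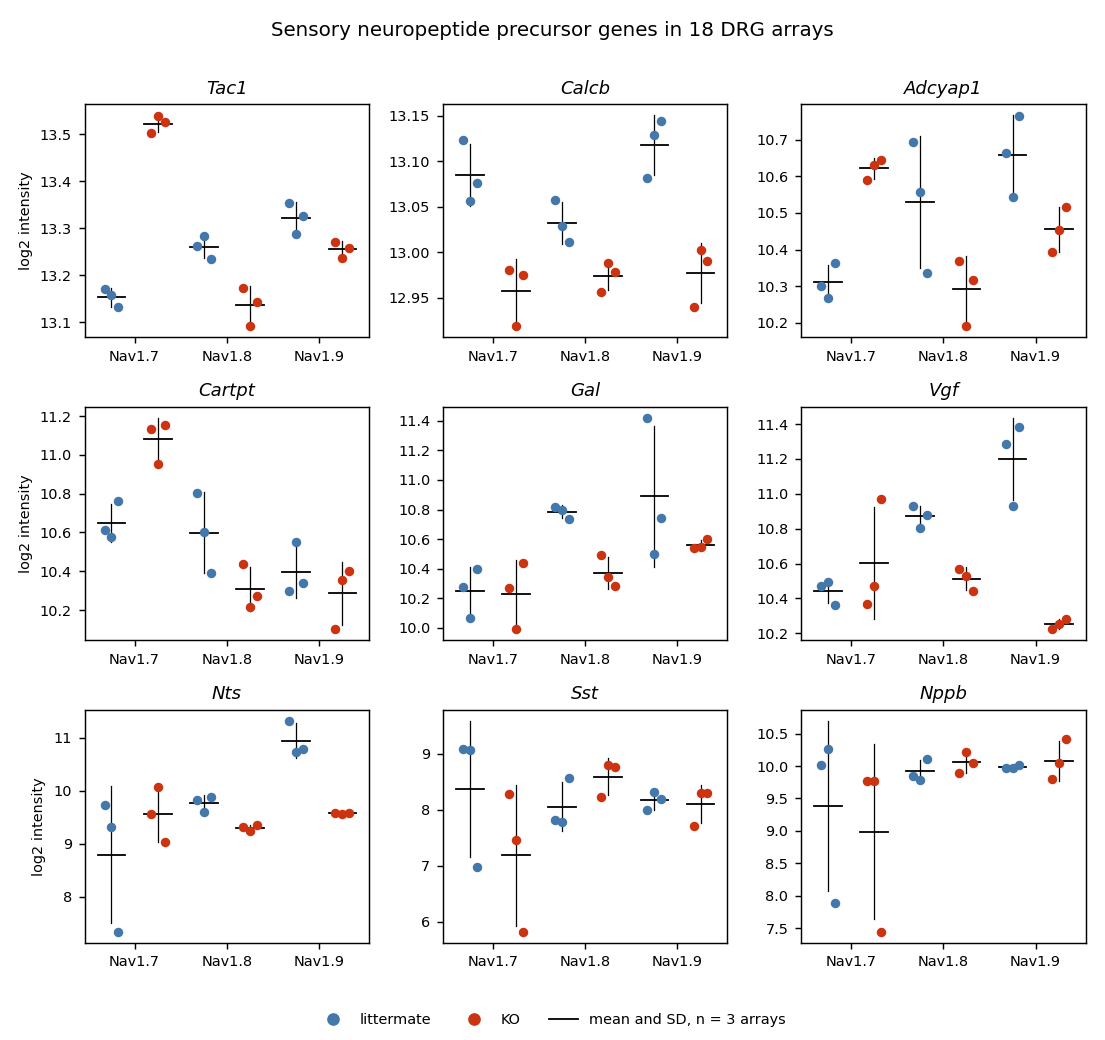
Log2 intensity (vertical axes, each gene on its own range, not starting at 0) of the 9 measured precursor genes in the 18 arrays, by line and genotype. Points are arrays, and horizontal and vertical black lines are the group mean and SD (n = 3 arrays). *Tac1* and *Cartpt* are highest in the 3 Nav1.7 KO arrays, *Nts* is highest in the 3 Nav1.9 littermates, *Vgf* is lowest in the 3 Nav1.9 KO arrays, and 1 array of each Nav1.7 group is far below the others in *Sst* and *Nppb*.

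The comparison of Nav1.7 KO with littermate DRG asks how the peptide genes of sensory neurons stand after loss of this channel. Of the 9 members, 3 were higher and 0 lower at an adjusted p under 0.05. Among all 18193 genes, 4.33% passed, with 1.81% higher and 2.51% lower. At an unadjusted p under 0.05, 5 of the 9 passed, against 16.3% of all genes. The median log2 fold change of the 9 was 0.16, against 0.01 for all genes. The KO and littermate arrays did not overlap for 4 of the 9 genes, *Calcb* and the 3 that rose, against 20.4% of all genes.

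*Tac1*, on chromosome 6 (chr6:7555061-7562978), encodes the precursor of substance P and neurokinin A. Its log2 intensity was 13.17, 13.16 and 13.13 in the 3 Nav1.7 littermates and 13.50, 13.54 and 13.53 in the 3 KO arrays. The KO arrays were above every one of the other 15 arrays. *Tac1* thus rose 1.29-fold, a log2 fold change of 0.37 with a 95% interval of 0.29 to 0.45 (adjusted p = 9.68e-06 from limma). Within the *Xist*-high arrays, 2 KO against 3 littermates, the difference was 0.36, and with the *Xist* class as a term the adjusted p was 4.65e-05. Leaving out any single array did not end this call. The second *Tac1* probe set read between 3.62 and 3.92 in all 18 arrays, and its difference was 0.09 (adjusted p = 0.690 over all probe sets).

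*Adcyap1* (chr17:93198245-93206541) encodes PACAP, a peptide of nociceptors that acts on receptors coupled to cyclic AMP. It was 10.30, 10.27 and 10.36 in Nav1.7 littermates and 10.59, 10.63 and 10.65 in KO arrays, so the groups did not overlap, while the KO values lay within the span of the Nav1.9 littermates. The rise was 1.24-fold, or 0.31 on the log2 scale with a 95% interval of 0.15 to 0.48 (adjusted p = 0.0316 from limma). Its other probe set gave a log2 fold change of 0.39 (adjusted p = 0.0418 over all probe sets, where that of the brighter one was 0.0505).

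*Cartpt* (chr13:99898483-99910179) encodes the precursor of the CART peptides. Its values were 10.61, 10.58 and 10.76 in Nav1.7 littermates and 11.13, 10.95 and 11.15 in KO arrays, and like *Tac1* the KO arrays stood above all other 15. *Cartpt* rose 1.35-fold, or 0.43 on the log2 scale with a 95% interval of 0.20 to 0.66 (adjusted p = 0.0311 from limma). Within the *Xist*-high arrays the differences of *Adcyap1* and *Cartpt* were 0.31 and 0.49. These calls were close to the threshold. The adjusted p with the *Xist* class as a term was 0.0733 for *Adcyap1* and 0.0580 for *Cartpt*, and the call of *Adcyap1* was lost without any 1 of the 6 Nav1.7 arrays (adjusted p 0.0560 to 0.108). That of *Cartpt* was lost without littermate replicate 1 or 2 or KO replicate 1 or 3 (adjusted p 0.0898 to 0.110). The sizes changed little in these settings, with log2 fold changes from 0.29 to 0.34 for *Adcyap1* and from 0.39 to 0.49 for *Cartpt* across the single arrays left out.

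*Calcb*, which encodes the beta form of CGRP, read lower instead. It was 13.12, 13.06 and 13.08 in Nav1.7 littermates and 12.98, 12.92 and 12.97 in KO arrays, and every KO array was below every littermate. The log2 fold change was -0.13, with a 95% interval of -0.20 to -0.05 (adjusted p = 0.0623 from limma). It passed in a setting with dim genes left out (adjusted p = 0.0220) and with a trended and robust prior (adjusted p = 0.00855). *Calcb* was also lower in all KO arrays than in all littermates in the Nav1.8 line, by 0.06 (adjusted p = 0.713), and in the Nav1.9 line, by 0.14 (adjusted p = 0.106). None of these 3 differences passed in the fit of all genes. The Nav1.9 difference passed in 2 of the 33 alternative settings (lowest adjusted p = 0.0170 from limma).

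The remaining members did not pass in Nav1.7 KO DRG. *Gal*, the galanin precursor, had a log2 fold change of -0.02, with a 95% interval of -0.37 to 0.34. That of *Vgf*, which encodes a precursor of several small peptides, was 0.16 (interval -0.11 to 0.43) and it rested on KO replicate 3, which read 10.97 against 10.37 and 10.47 in the other two. Without that array it was -0.02. *Nts* read 9.74, 9.32 and 7.33 in littermates and 9.56, 10.08 and 9.04 in KO arrays, which overlap, and its log2 fold change was 0.76 (adjusted p = 0.405) and 0.29 (adjusted p = 0.563) without both replicate 3 arrays. Without littermate replicate 3 alone it was 0.03, and over the other single arrays left out from this line it reached 1.24.

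**Figure D2:**
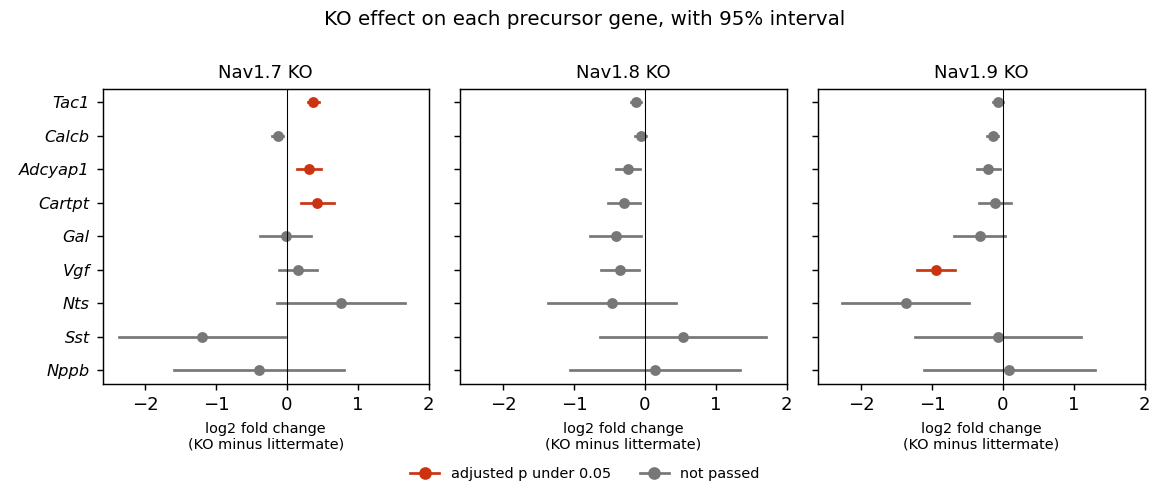
Log2 fold change, KO minus littermate, of each precursor gene in the 3 lines (points) with 95% intervals from the limma model of 18 arrays (bars). Red marks an adjusted p under 0.05, which *Tac1*, *Adcyap1* and *Cartpt* reached in Nav1.7 KO and *Vgf* in Nav1.9 KO, and the intervals of *Sst*, *Nppb* and *Nts* are the widest.

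Other genes of peptidergic neurons and of peptide signalling were read from the same fit. Of 9 measured genes listed here as markers of peptidergic nociceptors, 2 rose in Nav1.7 KO DRG, 1 fell and 6 did not pass. How particular each of the 9 is to these neurons was not tested. *Trpv1*, the capsaicin receptor, rose by 0.61 (log2 fold change, adjusted p = 3.87e-06 from limma) and *Gfra3*, the artemin receptor, by 0.33 (adjusted p = 0.0192). *Plxnc1*, a semaphorin receptor, fell by 0.29 (adjusted p = 0.00323). Nav1.7 minus Nav1.8 and minus Nav1.9 littermates gave -0.37 and -0.44 in *Trpv1* (adjusted p = 0.00027 and 7.88e-05 from limma). In *Gfra3* they gave -0.45 and -0.47 (adjusted p = 0.000762 and 0.000801). How far these lower littermates enter the rises was not tested. Of 11 markers of non-peptidergic nociceptors, 7 fell and none rose. Those with the smallest p were the kainate receptor subunit *Grik1* (log2 fold change -0.86, adjusted p = 8.35e-06), the kinase *Prkcq* (-0.89, adjusted p = 2.69e-05), the complement regulator *Cd55* (-0.49, adjusted p = 0.000567) and the transcription factor *Runx1* (-0.80, adjusted p = 0.00188). *Ret*, *Lpar3* and *Gfra2*, also among the 7, lost their calls without 7, 5 and 3 of the 18 arrays, taken 1 at a time. The median log2 fold change was 0.11 in the first list and -0.31 in the second, against 0.01 for all genes. In whole ganglia fewer neurons of a kind and less RNA per neuron cannot be told apart.

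Genes that sense, make and store peptides were counted in the same way, with 4.33% of all genes passing in this comparison. Of 27 measured receptors for these peptides, 1 rose and 1 fell in Nav1.7 KO DRG: *Calcrl*, the receptor subunit for CGRP, rose 1.32-fold (adjusted p = 0.00654 from limma), and *Gpr160*, proposed as a receptor for CART, fell 1.48-fold (adjusted p = 0.00309). Of 19 processing enzymes, only the protease gene *Ctsl* rose (1.13-fold, adjusted p = 0.0399). Of 21 dense core vesicle genes, 3 fell and 1 rose, with the granin *Scg3* at a log2 fold change of -0.33 (adjusted p = 0.000331) and the electron carrier *Cyb561* at 0.21 (adjusted p = 0.0238). *Cadps2* and *Syt7*, both of vesicle exocytosis, fell by 0.31 and 0.29. At an unadjusted p under 0.05, 11 of the 21 vesicle genes passed, against 16.3% of all genes. Of 36 other neuropeptide precursors, *Penk*, the enkephalin precursor, alone passed, with a 4.60-fold rise (adjusted p = 0.000273). *Penk* was 7.88, 7.77 and 7.90 in Nav1.7 littermates and 9.74, 10.82 and 9.60 in KO arrays. Littermates of the Nav1.8 and Nav1.9 lines read higher, at 9.47 to 9.56 and 9.10 to 9.20. The *Xist*-low Nav1.7 KO array, replicate 2, was the highest. In Nav1.8 KO DRG the *Xist*-high arrays read 8.06 and 8.05 and the *Xist*-low one 9.24. How far the low littermates and the *Xist* class enter the rise was not tested. Of 20 activity and cyclic AMP response genes, only *Bdnf* rose (log2 fold change 0.57, adjusted p = 0.0224), and *Fos* read 0.02 (adjusted p = 0.967). Of 21 nerve injury genes, 3 rose, *Jun* (log2 fold change 0.41, adjusted p = 0.00256), *Flrt3* (0.38, adjusted p = 0.0223) and *Bdnf*, and the median of the list was 0.25. The calls of *Gfra3*, *Ctsl*, *Cyb561*, *Syt7*, *Bdnf* and *Flrt3* were lost without some single arrays (5, 11, 4, 1, 3 and 4 of the 18). Apart from these and *Ret*, *Lpar3* and *Gfra2*, the genes named here from these lists kept theirs.

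All 12 macrophage markers had a log2 fold change above 0 in Nav1.7 KO DRG, with a median of 0.37 against 0.01 for all genes. Only 1 of them, *Adgre1*, passed (adjusted p = 0.0285 from limma). The mean over these markers was 6.71 to 7.05 in littermate arrays and 7.10 to 7.49 in KO arrays. In the other lines' littermates it was 7.38 to 7.49 (Nav1.8) and 7.26 to 7.42 (Nav1.9), above the Nav1.7 littermates. Of 8 satellite glia markers 1 rose, *Fabp7* (log2 fold change 0.36, adjusted p = 0.0175 from limma). Its mean was 12.97 in Nav1.7 littermates and 13.32 in KO arrays, against 13.50 and 13.60 in Nav1.8 and Nav1.9 littermates. Of 8 Schwann cell, 9 endothelial and 8 fibroblast markers none passed. Among 10 markers of myelinated neurons *Ntrk2* and *Necab2* fell (log2 fold change -0.25 and -0.44), and among the 11 sensory neuron markers *Avil* and *Syt1* did (-0.64 and -0.17). The calls of *Adgre1*, *Fabp7*, *Necab2* and *Syt1* were lost without 4, 3, 3 and 2 of the 18 arrays, taken 1 at a time. Their part in the peptide results was not tested.

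In Nav1.8 KO DRG, 0 of the 9 members passed by limma, as did 3 of all genes (0.0165%), and none passed in an analysis of variance on the 6 arrays. At an unadjusted p under 0.05, 5 of the 9 were lower and 0 higher, against 5.4% and 2.69% of all genes, 8.09% in all. These were *Tac1*, *Adcyap1*, *Gal*, *Cartpt* and *Vgf*. The median log2 fold change of the members was -0.24, against -0.01 for all genes.

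*Gal* was 10.82, 10.80 and 10.74 in the Nav1.8 littermates and 10.49, 10.34 and 10.28 in the KO arrays. *Vgf* was 10.93, 10.81 and 10.88 in littermates and 10.57, 10.53 and 10.44 in KO arrays. Every KO array was below every littermate for both genes, and for *Tac1*, *Calcb* and *Nts* too, which makes 5 of 9 members against 9.02% of all genes. The log2 fold change was -0.41 for *Gal* (95% interval -0.77 to -0.05, adjusted p = 0.563 from limma) and -0.36 for *Vgf* (interval -0.62 to -0.09, adjusted p = 0.533).

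*Tac1* was 13.26, 13.28 and 13.23 in Nav1.8 littermates and 13.17, 13.09 and 13.14 in KO arrays, a log2 fold change of -0.12 (adjusted p = 0.491 from limma). *Adcyap1* read -0.24 (adjusted p = 0.495), *Cartpt* -0.29 (adjusted p = 0.538) and *Nts* -0.47 (adjusted p = 0.815). The single *Xist*-low KO array differed from the 3 littermates, all *Xist*-low, in the same direction, by -0.09 for *Tac1*, -0.29 for *Gal* and -0.30 for *Vgf*. Of 21 nerve injury genes in this line, 19 had a log2 fold change below 0 and none passed (median -0.20, against -0.01 for all genes). Their mean was 8.36 to 8.44 in littermate arrays and 8.07 to 8.23 in KO arrays. Their part in the peptide values was not tested. No gene passed in this line among the lists of receptors, processing enzymes, vesicle genes, other precursors, activity genes or cell markers, the markers of peptidergic nociceptors included (median -0.03).

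In Nav1.9 KO DRG, 1 of the 9 members was lower and 0 higher, against 0.313% and 0.159% of all genes, 0.473% in all. At an unadjusted p under 0.05, 4 of the 9 passed, against 12.1% of all genes. The median of the members was -0.14, against 0.00 for all genes. KO arrays lay entirely below littermates for 5 of 9 members, *Calcb*, *Tac1*, *Adcyap1*, *Nts* and *Vgf*, against 9.29% of all genes.

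*Vgf* (chr5:137025301-137033351) was 11.28, 10.93 and 11.38 in the Nav1.9 littermates and 10.22, 10.26 and 10.28 in the KO arrays. The KO arrays were below all other 15 arrays. *Vgf* fell 1.93-fold (log2 fold change -0.94, 95% interval -1.21 to -0.68, adjusted p = 0.00311 from limma). The call did not depend on any single array, and it was lost when the 6 Nav1.9 arrays were fitted alone (adjusted p = 0.0598) and in an analysis of variance on them (adjusted p = 0.306).

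*Nts* (chr10:102481756-102490418), the neurotensin precursor, showed the largest value. It was 11.32, 10.73 and 10.79 in Nav1.9 littermates and 9.59, 9.56 and 9.58 in KO arrays. The littermates were above all other 15 arrays, while the KO arrays were within the span of the other groups. The log2 fold change was -1.37, with a 95% interval of -2.27 to -0.47, and it did not pass (adjusted p = 0.192 from limma). The model shares 1 estimate of spread over all lines, and for *Nts* that spread came largely from the Nav1.7 arrays, where littermate replicate 3 read 7.33. Without that array the adjusted p was 0.0114, without replicate 3 of both Nav1.7 groups it was 0.00134, and with the 6 Nav1.9 arrays alone it was 0.0449.

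*Gal* was 11.42, 10.50 and 10.75 in Nav1.9 littermates and 10.54, 10.55 and 10.60 in KO arrays, which overlap. Its log2 fold change of -0.33 (adjusted p = 0.460 from limma) rested on littermate replicate 1. Without that array it was -0.06. *Tac1* read -0.07 and *Adcyap1* -0.20 (adjusted p = 0.471 and 0.301).

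Of 21 genes known from injured sensory neurons, 9 fell in Nav1.9 KO DRG, 12 did not pass and none rose, against 0.313% of all genes lower. Their median log2 fold change was -0.47, against 0.00 for all genes. *Atf3*, a transcription factor of axotomised neurons, was 10.35, 8.97 and 9.41 in the littermates and 7.89, 7.59 and 7.74 in KO arrays (log2 fold change -1.83, adjusted p = 0.00711 from limma). *Sprr1a* was 10.40, 7.77 and 8.70 in the littermates and 6.08, 5.69 and 5.51 in KO arrays (log2 fold change -3.20, adjusted p = 0.00554). The adhesion molecule gene *Flrt3* fell by 0.58 on the log2 scale (adjusted p = 0.00972). *Npy*, the neuropeptide Y precursor, fell 2.79-fold (adjusted p = 0.0121) and was the 1 gene of the 36 other precursors to pass. The littermates of this line were high in these genes also against the littermates of the other lines: 17 of the 21 were lower in Nav1.7 littermates, against 7.45% of all genes, and 13 in Nav1.8 littermates, against 5.3%. Why they were higher in these arrays was not tested. Of 20 activity and cyclic AMP response genes, *Bdnf* and *Egr3* fell (log2 fold change -0.75 and -0.93, adjusted p = 0.0188 and 0.0278). None of the receptors, processing enzymes, vesicle genes or markers of peptidergic nociceptors passed in Nav1.9 KO DRG, and of the non-peptidergic markers *Ret* fell (-0.22, adjusted p = 0.0281) beside the targeted *Scn11a*. The calls of *Bdnf*, *Egr3* and *Ret* were lost without 3, 4 and 5 of the 18 arrays, taken 1 at a time. Of the injury genes that fell, *Cacna2d1*, *Cckbr*, *Gpr151* and *Jun* also lost theirs, without 10, 6, 3 and 2 of the arrays. Those of *Atf3*, *Sprr1a*, *Flrt3* and *Npy* were not lost.

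**Figure D3:**
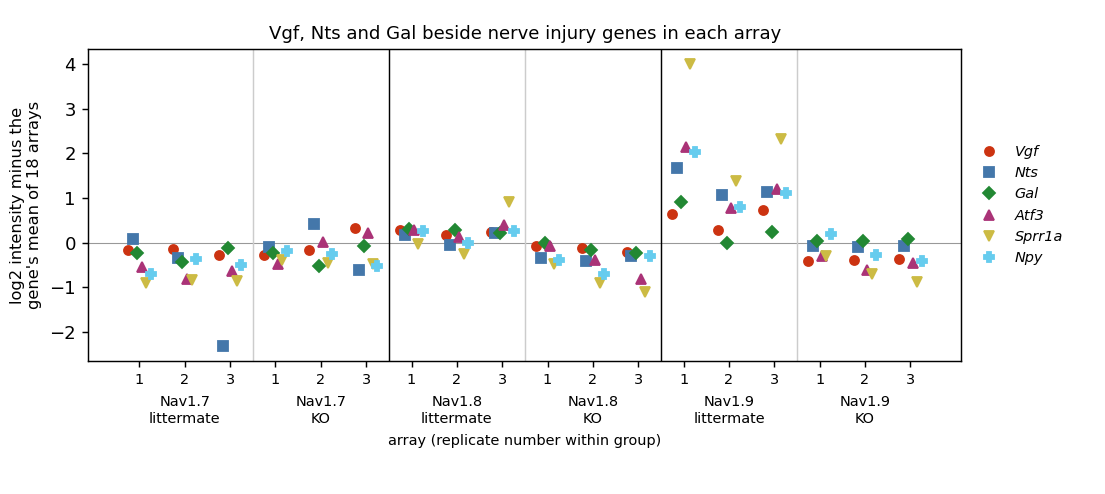
Log2 intensity minus the gene's own mean over the 18 arrays (vertical axis) for *Vgf*, *Nts* and *Gal* and for the nerve injury genes *Atf3*, *Sprr1a* and *Npy*, in each array (horizontal axis, replicate number within group, symbols set side by side). In the 3 Nav1.9 littermates every one of the 6 genes but *Gal* in replicate 2 is above its mean, and *Nts* in Nav1.7 littermate replicate 3 is the lowest point.

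Whether the KO effects differ between lines was tested as the difference of the KO minus littermate differences. At least 1 of the 3 pairs of lines differed for 4 of the 9 members, *Tac1*, *Adcyap1*, *Cartpt* and *Vgf*, against 3.57% of all genes. By pair, 2.15% of all genes differed between the Nav1.7 and Nav1.8 lines and 2.82% between the Nav1.7 and Nav1.9 lines. The effect on *Tac1* was higher in the Nav1.7 line than in the Nav1.8 line by 0.49 (adjusted p = 4.57e-05 from limma) and than in the Nav1.9 line by 0.44 (adjusted p = 0.000124). For *Adcyap1* these differences were 0.55 (adjusted p = 0.0151) and 0.51 (adjusted p = 0.0164).

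For *Cartpt* the Nav1.7 effect exceeded the Nav1.8 effect by 0.72 (adjusted p = 0.0199 from limma). The difference from the Nav1.9 effect, 0.54, did not pass (adjusted p = 0.0710). The *Vgf* effect of the Nav1.7 line was above that of the Nav1.9 line by 1.11 (adjusted p = 0.00243). Between the Nav1.8 and Nav1.9 lines no member differed by this test, *Vgf* included (difference 0.59, adjusted p = 0.366), and 7 genes did of all measured (0.0385%). The difference of *Cartpt* between the Nav1.7 and Nav1.8 lines was no longer called on leaving out Nav1.7 littermate replicate 2, Nav1.8 littermate replicate 1 or Nav1.8 KO replicate 2 or 3 (adjusted p 0.0501 to 0.0589), and with the *Xist* class as a term neither it (adjusted p = 0.139) nor that of *Adcyap1* did (adjusted p = 0.171).

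The littermates themselves were not alike. 5 of the 9 members differed between littermates of at least 1 pair of lines, against 31.7% of all genes, and for each of the 5 the Nav1.7 littermates were the lower. By pair, 23.3% of all genes differed between Nav1.7 and Nav1.8 littermates and 12.2% between Nav1.7 and Nav1.9 littermates. As log2 differences, Nav1.7 minus Nav1.9 littermates gave -0.17 in *Tac1* (adjusted p = 0.00552 from limma), -0.35 in *Adcyap1* (adjusted p = 0.00821), -0.64 in *Gal* (adjusted p = 0.0207, but 0.0651 without Nav1.9 littermate replicate 1 and 0.0831 without Nav1.7 littermate replicate 2), -2.15 in *Nts* (adjusted p = 0.00362, with a difference of -1.42 without Nav1.7 littermate replicate 3) and -0.76 in *Vgf* (adjusted p = 0.00105). Against Nav1.8 littermates, *Tac1*, *Gal* and *Vgf* were lower (adjusted p = 0.0388, 0.0314 and 0.0226), and these calls depended on single arrays. The call of *Tac1* was lost without any 1 Nav1.7 littermate or Nav1.8 littermate replicate 1 or 2, that of *Gal* without Nav1.7 littermate replicate 1 or 2 or any 1 Nav1.8 littermate, and that of *Vgf* without Nav1.7 littermate replicate 3 or Nav1.8 littermate replicate 1 or 3 (adjusted p 0.0523 to 0.125). With this pair of lines fitted alone *Tac1* had an adjusted p of 0.0672, and under quantile normalization 0.0988. The second *Adcyap1* probe set was lower there too, with a log2 difference of -0.59 (adjusted p = 0.000589 over all probe sets), while the brighter one read -0.22 (adjusted p = 0.0531 over all genes). With the *Xist* class as a term, *Vgf* against Nav1.9 littermates alone passed (adjusted p = 0.0236). Between Nav1.8 and Nav1.9 littermates no member passed (12.8% of all genes did), and the log2 difference of *Nts*, -1.18, had an adjusted p of 0.0817. The order of the 6 groups for *Tac1*, from high to low, was Nav1.7 KO, Nav1.9 littermates, Nav1.8 littermates, Nav1.9 KO, Nav1.7 littermates and Nav1.8 KO, where the arrays of the Nav1.8 littermates and Nav1.9 KO overlapped, as did those of the Nav1.7 littermates and Nav1.8 KO, and the other neighbours did not.

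*Sst* and *Nppb*, the precursors of somatostatin and NPPB, varied widely among replicates, as *Nts* did, and more than the other 6 members. *Nppb* was 10.01, 10.27 and 7.88 in the Nav1.7 littermates and 9.76, 9.77 and 7.44 in the Nav1.7 KO arrays. In the other 12 arrays it stayed between 9.79 and 10.41. The log2 fold change was -0.40 in the Nav1.7 line (95% interval -1.60 to 0.80), 0.14 in the Nav1.8 line and 0.09 in the Nav1.9 line, and none passed (adjusted p at least 0.803 from limma). In the Nav1.7 line it was -0.37 (adjusted p = 0.309) without both replicate 3 arrays, -1.15 without littermate replicate 3 alone and 0.38 without KO replicate 3 alone.

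*Sst* was 9.08, 9.07 and 6.98 in the Nav1.7 littermates and 8.28, 7.46 and 5.81 in the KO arrays. Replicate 3 was the lowest of each group, and KO replicate 3 was the lowest of all. The log2 fold change was -1.19 (95% interval -2.36 to -0.02, unadjusted p = 0.0461, adjusted p = 0.295 from limma). Its size depended on single arrays: it was -0.51 without KO replicate 3 and -1.89 without littermate replicate 3 (adjusted p = 0.693 and 0.0506). Without both it was -1.21 (adjusted p = 0.0478), with 2 arrays left in each Nav1.7 group. In the Nav1.8 and Nav1.9 lines the log2 fold change of *Sst* was 0.54 and -0.06 (adjusted p = 0.836 and 0.981). The effect in the Nav1.7 line minus that in the Nav1.8 line was -1.73, with an adjusted p of 0.318, and 0.0356 without both replicate 3 arrays.

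All genes were then ranked by how far both Nav1.7 replicate 3 arrays lay below the other 4 Nav1.7 arrays. This ranking was made after the values were seen and carries no test. *Nppb* had the largest gap of the 18193 genes, 1.88 between the higher of the 2 arrays and the lowest of the 4, and *Il31ra*, the receptor subunit for the itch cytokine interleukin 31, came next with 1.39. No other gene had a gap over 1. *Npy2r* (0.88), the adenosine deaminase gene *Ada* (0.85) and *Ptprk* (0.60) followed, *Sst* was at rank 8 (0.48), the serotonin receptor gene *Htr1a* at rank 10 (0.48) and *Nts* at rank 24 (0.28). Of the other 6 members, *Gal* was higher in both arrays than in the 4, and for the remaining 5 the 2 arrays did not stand below or above the 4. In the opposite direction *Iglv1* (0.91), an immunoglobulin gene, and *Ptgds* (0.78) had the largest gaps. *Ptgds* is a prostaglandin D synthase gene of the meninges and other tissues. It read 13.63 and 13.36 in the 2 arrays and 12.13 to 12.58 in the 4. In the other lines it was 12.96 to 14.11, so the 2 arrays lay within that span and the 4 below it. *Iglv1* was 6.25 and 8.34 in the 2 arrays and 4.83 to 8.74 in the other lines.

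*Il31ra* was 9.22, 9.42 and 7.23 in the Nav1.7 littermates and 8.62, 8.78 and 7.10 in the KO arrays. *Htr1f*, a further receptor of these neurons, was 7.95, 7.89 and 6.57 and then 7.16, 6.94 and 6.43. Among the other markers, *Cysltr2* was 5.77, 5.82 and 4.87 and then 5.15, 6.04 and 5.06. *Jak1* was 12.02, 12.03 and 11.74 and then 12.07, 11.84 and 11.66. *Htr1d* read 9.23, 9.30 and 9.40 in littermates, where replicate 3 was the highest, and 9.17, 9.34 and 9.02 in KO arrays. *Osmr*, the partner subunit of *Il31ra*, was 10.49, 10.64 and 9.41 in littermates and 11.01, 11.19 and 10.90 in KO arrays, so that its KO replicate 3 was not low. The mean over 6 measured markers of itch neurons was 8.20 to 9.18 in Nav1.7 littermates and 8.36 to 9.02 in the KO arrays, and 8.95 to 9.14 in all 12 arrays of the other lines. Of the 6, 1 passed, *Osmr*, which rose in Nav1.7 KO DRG (log2 fold change 0.85, adjusted p = 0.0325 from limma). Its size depended on the low littermate replicate 3, without which it was 0.46 (adjusted p = 0.0144), and without both replicate 3 arrays it was 0.53 (adjusted p = 0.00936). The call was lost without KO replicate 1 or 2 (adjusted p = 0.0795 and 0.118).

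**Figure D4:**
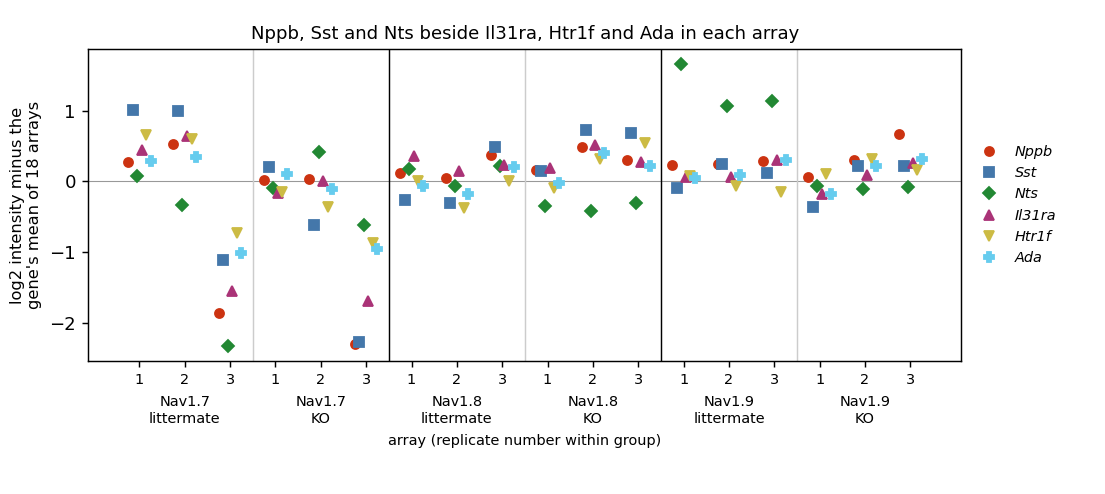
Log2 intensity minus the gene's own mean over the 18 arrays (vertical axis) for *Nppb*, *Sst* and *Nts* and for *Il31ra*, *Htr1f* and *Ada*, in each array (horizontal axis, replicate number within group, symbols set side by side). In replicate 3 of both Nav1.7 groups all 6 genes are below their mean, and in the other 2 lines *Nppb*, *Il31ra* and *Ada* stay within 1 log2 unit of it.

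The same genes came up when each member was compared with all others over the 18 arrays. Among 10915 genes in the upper 60% of mean intensity, the highest Pearson correlation with *Nppb* was that of *Il31ra* (r = 0.966), followed by *Ada* (0.949), and with *Sst* that of *Ada* (0.905), followed by *Htr1f* (0.893). For *Tac1* they were *Kcnv1* (0.960), a modifier subunit of potassium channels, and *Timeless* (0.944). *Adcyap1* was closest to *Gmps* (0.902) and *S1pr3* (0.863), and *Cartpt* to *Nrxn3* (0.912) and *Arhgap15* (0.910).

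*Nts* was closest to *Stac* (0.897) and *Rhov* (0.884). *Vgf* was closest to *Cacna2d1* (0.907), a calcium channel subunit of injured sensory neurons, and to *Hs2st1* (0.905). *Gal* followed *D430019H16Rik* (0.848) and *Sez6l* (0.842), and *Calcb* followed *Lrp11* (0.845) and *Frmd3* (0.826). These values describe 18 arrays that fall into 6 groups and share the differences between lines. Over the 16 arrays left without both Nav1.7 replicate 3 arrays, r was 0.666 for *Nppb* with *Il31ra* and 0.835 with *Ada*, 0.832 for *Sst* with *Ada* and 0.816 with *Htr1f*, and 0.749 to 0.952 for the pairs of the other members.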

How the data were processed

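Total RNA of DRG was hybridised to Affymetrix GeneChip whole-genome mouse arrays. Per the labels, the authors processed the arrays in Affymetrix Expression Console, and the deposited values are log2 intensities, a unit read from their range. The summary method and normalization are not given in the sources used here, and no detection calls were used, so signal over background is not known. Of 45101 probe sets, 64 controls were left out, 34945 had 1 gene symbol in the platform annotation, 932 had several and 9160 were not listed. Symbols were updated through RefSeq (GRCm38.p6), and each gene was represented by its probe set with the highest mean.

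Group means were fitted in limma 3.58.1 under R 4.3.3 on all 18 arrays, with 12 residual and 3.44 prior degrees of freedom and Benjamini-Hochberg adjustment over 18193 genes at a threshold of 0.05. The script was tested on simulated data. Where an array was left out and a group kept 2, the shared spread was used.

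The members, the lists of other genes and the tests were chosen with earlier results of these data known. Named are all members, up to 4 passing genes of each list (otherwise at most 2 genes), the 2 genes most correlated with each member, the targeted genes, *Avil* and *Xist*. *Npy2r*, *Ptprk*, *Htr1a*, *Ada*, *Iglv1*, *Ptgds* and *Fos*, and the measured itch neuron markers by array, were named after their values were seen. Passing genes beyond the 4 of a list were named where their calls were lost without single arrays. Alternatives were a fit of each line or pair of lines alone, quantile normalization, median centring, genes under the 40th percentile of mean intensity left out, other uses of the probe sets, array weights, a prior with trend and robust fit, a block for the replicate number, the *Xist* class as a term, each array left out, other thresholds and an analysis of variance. Both Nav1.7 replicate 3 arrays left out, also for the correlations, and each array left out for the genes of the lists were added after seeing the data.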

Additional observations from a re-analysis of the deposited data

Results flagged for a closer look

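The KO effects that differed between lines by the fitted difference are listed here, each as the Nav1.7 effect minus that of the other line on the log2 scale, with the adjusted p from limma. Against the Nav1.8 line the difference was 0.49 for *Tac1* (adjusted p = 4.57e-05), 0.55 for *Adcyap1* (adjusted p = 0.0151) and 0.72 for *Cartpt* (adjusted p = 0.0199). Against the Nav1.9 line it was 0.44 for *Tac1* (adjusted p = 0.000124), 0.51 for *Adcyap1* (adjusted p = 0.0164) and 1.11 for *Vgf* (adjusted p = 0.00243). *Tac1*, *Adcyap1* and *Cartpt* were higher in KO than in littermate DRG in the Nav1.7 line and read lower, without passing, in both other lines. For *Vgf* the decrease in the Nav1.9 line gave most of the difference. In the Nav1.7 line *Tac1*, *Adcyap1* and *Vgf* started from littermates that were lower than those of the Nav1.9 line, and how far this enters the differences was not tested.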

How the results depend on the processing

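The number of members passing was 3 in the Nav1.7, 0 in the Nav1.8 and 1 in the Nav1.9 comparison, 4 for differences of KO effects and 5 between littermates. In the Nav1.7 line it was 1 with the *Xist* class as a term, 1 in the analysis of variance and 0 at an unadjusted p under 0.01 with a fold change over 1.5. In the Nav1.9 line it was 2 with dim genes left out, with a trended and robust prior, at the unadjusted threshold with the fold limit and without both Nav1.7 replicate 3 arrays (chosen after seeing the data), and 0 in the analysis of variance. Between littermates it was 1 with the *Xist* class and 3 at the unadjusted threshold. Leaving out single arrays gave 1 to 3 members in the Nav1.7 line (1 without littermate replicate 1 or 2 or KO replicate 1 or 3), 0 in the Nav1.8 line, 1 to 2 in the Nav1.9 line (2 without Nav1.7 littermate replicate 3), 3 to 5 for the differences and 4 to 5 between littermates. Some values that did not pass changed sign. *Gal* in the Nav1.7 line was 0.0153 with the *Xist* class and -0.12 to 0.11 over single arrays left out, *Nppb* there was -1.15 to 0.38 and *Vgf* -0.0230 to 0.28, and *Vgf* was -0.0624 without both replicate 3 arrays. In the Nav1.9 line *Sst* was -0.16 to 0.13 and *Nppb* -0.0717 to 0.24. The cause was not tested.

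Same-numbered KO and littermate arrays had correlated deviations of -0.19 to 0.27, over 0.1 in 3 of 9 pairs, so the numbers were not taken as pairs. In the Nav1.7 line each of the 3 KO arrays correlated best with the littermate of its own number, in the other lines 1 of 3, a hint from the data and not the design. With the replicate block, 4, 0 and 1 members passed in the 3 lines and 6 for the differences. Under the block *Sst* had an adjusted p of 0.00583 in the Nav1.7 line, and the differences of *Sst* between the Nav1.7 and Nav1.8 lines and of *Cartpt* and *Nts* between the Nav1.7 and Nav1.9 lines had 0.00957, 0.0259 and 0.0238. The comparison of littermates between lines could not be fitted with the block.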
